A study of Kluyveromyces lactis with 17 samples.

Results

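Wild-type (WT) cells of the yeast Kluyveromyces lactis held at 135 µg/L nicotinic acid were compared with WT cells held at 400 µg/L, the nearest of the lower levels of this vitamin to 400 µg/L in the series. The comparison was defined by the labels alone and uses 5 of the 17 libraries. Libraries 3 and 4 are the 2 replicates at 135 µg/L. At 400 µg/L, library 2 is 1 replicate, and libraries 1 and 1R share a number and were summed as the other, so that each side has n = 2. The names of libraries 1 and 1R carry a resubmission mark whose meaning the labels do not give.

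The WT strain is LRY2992 (MATa SIR2 hmlΔ hmrΔ) and the deletion strain is LRY2993 (MATα sir2Δ hmlΔ hmrΔ), so both strains carry deletions of HML and HMR, the silent copies of the mating-type genes. Every culture was grown overnight at 400 µg/L in minimal medium with glucose, then diluted into medium with 15, 45, 135 or 400 µg/L and harvested after 4 h in log phase. Polyadenylated RNA was sequenced, and the deposited table gives the number of reads per gene. The series text states that replicates were independent cultures. The strains differ in SIR2 and in mating type together, and each is 1 strain.

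Nicotinic acid enters yeast through the permease Tna1 and is joined to a ribose phosphate by Npt1, the entry step of the salvage route to NAD+. K. lactis lacks most of the pathway that makes NAD+ from tryptophan and therefore depends on the vitamin. Sir2 is a protein deacetylase that consumes NAD+ and silences chromatin, including genes near chromosome ends, and the related S. cerevisiae deacetylase Hst1 represses TNA1 together with Sum1. K. lactis has a single gene in place of S. cerevisiae SIR2 and HST1. Gene roles below are those known in S. cerevisiae unless stated.

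The 5 libraries held 29311784 to 35544957 reads, within the 24663143 to 38246270 reads of all 17. KLLA0_F14663g, taken here as SIR2 from prior knowledge because the reference table gives it no symbol, was at 108 to 147 CPM (reads scaled to a common library size) in the 5 WT libraries and at 0.753 to 2.65 CPM in the sir2Δ libraries at 400 and 135 µg/L. The lowest WT value was that of library 1. Library 1 stood apart in other ways as well. Its Pearson correlation of log2 CPM across genes with the other 4 libraries was 0.960 to 0.965, against 0.993 to 0.996 among those 4. With genes divided by coding length into 5 equal bins, its median log2 difference from library 1R was 0.65 for the shortest bin and -0.41 for the longest. Reads of the 3 genes of the α mating-type locus were also found in the WT libraries, at 1.73% and 2.59% of the mean sir2Δ level at 400 µg/L in libraries 1 and 1R, 0.473% in library 2, and 0.555% and 0.849% in libraries 3 and 4.

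Among the 5224 genes tested, 116 were higher and 45 lower at 135 µg/L than at 400 µg/L (edgeR's quasi-likelihood test, Benjamini-Hochberg adjusted p under 0.05). The 161 calls are 3.08% of the genes tested, with 2.22% called higher and 0.861% called lower. Changes were small: the median log2 fold change was 0.53 for the rises and -0.49 for the falls, and 11 rises and 1 fall reached 1 on the log2 scale. Upper-quartile scaling gave 88 rises and 55 falls, so that 61.5% of its calls were higher against 72.0%. The number of calls depended on single libraries. It was 75 without library 1R, 86 without libraries 1 and 1R, 293 without library 2, 39 without library 3 and 35 without library 4, where a lone replicate was assumed to vary like the other groups, and 178 without library 1. All 161 genes kept their sign in each of these fits. A set of 28 rises and 1 fall was called in all 6 fits that left libraries out, and the account below leads with these genes. Anything particular to the cultures of libraries 3 and 4 cannot be told apart from the level of nicotinic acid.

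**Figure D1:**
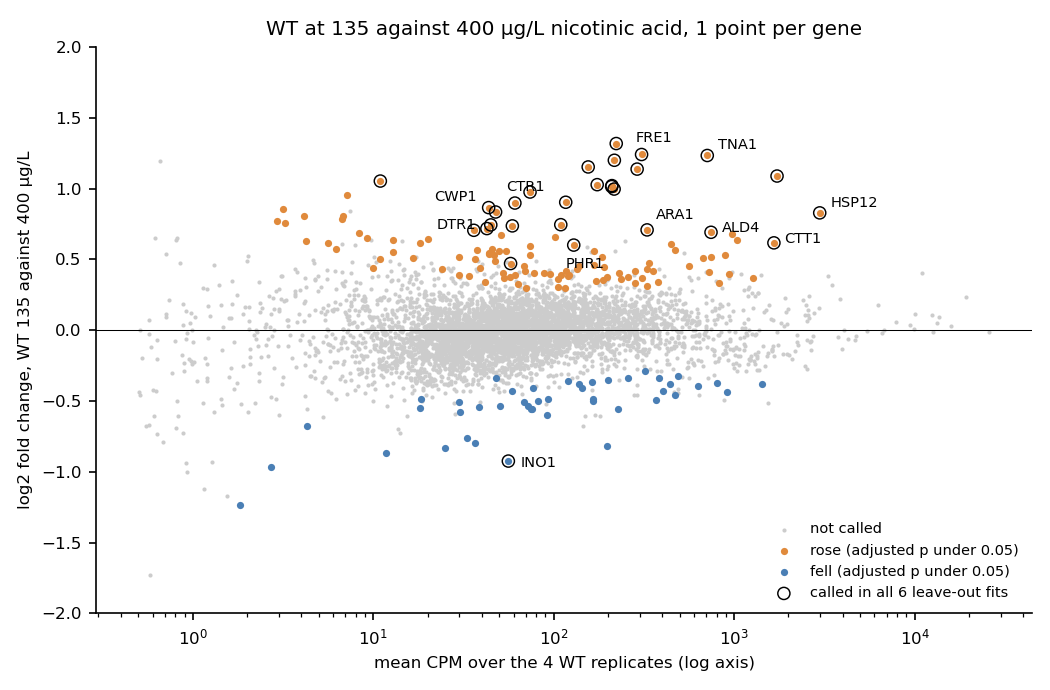
Mean level of each gene over the 4 WT replicates (x, CPM, log axis) against its log2 fold change at 135 over 400 µg/L (y). Orange points rose and blue points fell at an adjusted p under 0.05, and rings mark the 28 rises and 1 fall called in all 6 leave-out fits; the ringed genes lie across the range of levels, and INO1 is the only ringed fall.

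TNA1 (KLLA0_A09449g), the nicotinic acid permease, was at 408 and 439 CPM in the 2 replicates at 400 µg/L and at 977 and 1016 CPM at 135 µg/L. Both replicates at the lower level lay above both at the higher level. The rise was 1.23 ± 0.09 on the log2 scale (SE; adjusted p = 1.02e-06, edgeR's quasi-likelihood test with Benjamini-Hochberg adjustment) and was called in all 6 leave-out fits. TNA1 went on to 2591 and 2489 CPM at 45 µg/L, and at 15 µg/L it reached 3331 and 3375 CPM. In the sir2Δ strain it was at 1855 and 1901 CPM even at 400 µg/L, and stood at 2345 and 2195 CPM at 135 µg/L, where the change was not called (0.27 ± 0.09).

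The rest of the NAD+ route moved less. Of the 14 genes of NAD+ salvage and transport, 2 rose and 1 fell (14.3% and 7.14%, against 2.22% and 0.861% of all genes tested). Their median log2 fold change was 0.11 against -0.01 over all genes tested. Without library 1, 4 rose and none fell. NPT1, the nicotinate phosphoribosyltransferase, was at 159 and 143 CPM at 400 µg/L and at 189.8 and 193 CPM at 135 µg/L. Its groups did not overlap, but the rise of 0.34 ± 0.08 (adjusted p = 0.0275, edgeR with Benjamini-Hochberg adjustment) was called in only 2 of the 6 leave-out fits. At lower levels NPT1 reached 447 and 493 CPM at 45 µg/L and 1193 and 1229 CPM at 15 µg/L. At 15 against 400 µg/L the log2 fold change was 2.98 for TNA1 and 3.0 for NPT1, while at 135 µg/L it was 1.23 and 0.34. The difference between these 2 genes was not tested. PNC1, the nicotinamidase that returns nicotinamide to nicotinic acid, was at 102 and 96.7 CPM at 400 µg/L and 125 and 120.2 CPM at 135 µg/L, a difference of 0.30 ± 0.08 that missed the threshold (adjusted p = 0.0603, edgeR). PNC1 was called without library 1 (0.33, adjusted p = 0.0212, edgeR) and by DESeq2 (0.30, adjusted p = 0.0128), and under no other alternative. The NAD+ synthetase gene QNS1 (0.20 ± 0.08), the nicotinamide riboside kinase gene NRK1 (0.09 ± 0.25) and the silencing factor gene SUM1 (0.33 ± 0.11) were not called. NRK1 had few reads, and its value was -0.02 without library 1. The fall in the list was MEU1, a methionine salvage enzyme (-0.41 ± 0.10), called in 1 of the 6 leave-out fits and not without library 1 (-0.29). None of the 14 silencing factors and sirtuins tested was called.

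The neighbouring genes KLLA0_C06677g and KLLA0_C06699g, which carry no symbol in the reference table, rose at every step in WT as TNA1 did. KLLA0_C06677g was at 142 and 121 CPM at 400 µg/L, 311 and 294 CPM at 135 µg/L, 1339.7 and 1288 CPM at 45 µg/L and 1964 and 2014 CPM at 15 µg/L. Replicates at every level were clear of those at every other level, and the step to 135 µg/L was 1.20 ± 0.09 (adjusted p = 1.02e-06, edgeR). KLLA0_C06699g was at 103 and 89.8 CPM at 400 µg/L and at 214 and 215 CPM at 135 µg/L, a rise of 1.15 ± 0.09. In sir2Δ cells at 400 µg/L both genes were already high, at 1238 and 1206 CPM for KLLA0_C06677g and 966 and 1038 CPM for KLLA0_C06699g.

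FRE1 (KLLA0_F04950g), a cell-surface reductase of iron and copper, behaved differently at the lower levels. It was at 167 and 199 CPM at 400 µg/L and at 439 and 424 CPM at 135 µg/L, a rise of 1.24 ± 0.09 (adjusted p = 1.02e-06, edgeR) with no overlap. At 45 µg/L it was back at 258 and 238 CPM and at 15 µg/L at 251 and 234 CPM. CTR1 (KLLA0_B11407g), the high-affinity copper transporter, was also highest at 135 µg/L: 47.3 and 37.8 CPM at 400 µg/L, 79.6 and 79.3 CPM at 135 µg/L, 50.8 and 58.9 CPM at 45 µg/L, and 54.2 and 55.5 CPM at 15 µg/L. Its rise at 135 µg/L was 0.90 ± 0.10 (adjusted p = 7.23e-05, edgeR). These are the 2 members of the 18 iron and copper uptake genes that were called (11.1%, against 2.22% of all genes tested called higher). The median of that list was 0.05. In sir2Δ cells the same drop left FRE1 at 164 and 159 CPM before and 179.5 and 179 CPM after, and CTR1 at 37.7 and 37.9 CPM before and 37.0 and 37.9 CPM after.

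The largest rise belonged to KLLA0_E24927g, a gene without a symbol that lies the seventh from the right end of chromosome E. It was at 128 and 126 CPM at 400 µg/L and at 320.4 and 314 CPM at 135 µg/L, a rise of 1.32 ± 0.11 (adjusted p = 2.16e-06, edgeR). At 45 µg/L it was at 141 and 142 CPM and at 15 µg/L at 194 and 178 CPM, so that both replicates at 135 µg/L stood above every other WT replicate. Of the 28 rises called in all leave-out fits, 9 had their highest WT mean at 135 µg/L: KLLA0_E24927g, FRE1, CTR1, KLLA0_B14498g, KLLA0_E24861g, KLLA0_C01496g, HSP12, KLLA0_C01276g and PHR1. Another 13 rose in mean at every step down to 15 µg/L. Among all 116 rises these counts were 26 and 56, and among the 5224 genes tested 1013 had their highest WT mean at 135 µg/L and 541 rose in mean at every step. These shapes use the 135 µg/L values that chose the genes and are a description.

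Some of the remaining rises belonged to stress, oxidation and surface genes. HSP12, a small membrane protein made under stress, was at 2284 and 2014 CPM at 400 µg/L and at 3893 and 3739 CPM at 135 µg/L, a rise of 0.83 ± 0.11 (adjusted p = 0.000312, edgeR). CTT1, the cytosolic catalase, was at 1281 and 1343 CPM at 400 µg/L and at 2043 and 1981 CPM at 135 µg/L, a rise of 0.62 ± 0.08. Neither gene's groups overlapped, which is a description because the same values called the genes. They were the 2 called of 22 stress genes (9.09% rose, against 2.22% of all genes tested), whose median was 0.14. Without library 1, 3 stress genes rose and 2 fell. Of the 12 genes of glycolysis and fermentation, 2 rose (16.7%), both coding for aldehyde dehydrogenases. ALD4 was at 603 and 537 CPM at 400 µg/L and 954 and 886 CPM at 135 µg/L, a rise of 0.69 ± 0.10. ALD5 rose by 0.51 ± 0.12, called in 1 of the 6 leave-out fits and not without library 1 (0.35). CWP1, a mannoprotein of the cell wall, was at 30.9 CPM in both replicates at 400 µg/L and at 56.7 and 55.9 CPM at 135 µg/L, a rise of 0.87 ± 0.09. It was joined by SPI1 (0.53 ± 0.10) and the exoglucanase gene EXG1 (0.39 ± 0.08) among 24 surface genes (12.5% rose), with a median of 0.09. These counts are few to set against the 2.22%, and the lists were chosen with earlier results of these data known. EXG1 was not called without library 1 (0.28). Of the other rises called in all leave-out fits, ARA1 codes for a sugar dehydrogenase that uses NADP+ (0.71), DTR1 for a transporter of the spore wall precursor dityrosine (0.74) and PHR1 for the DNA photolyase (0.60).

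**Figure D2:**
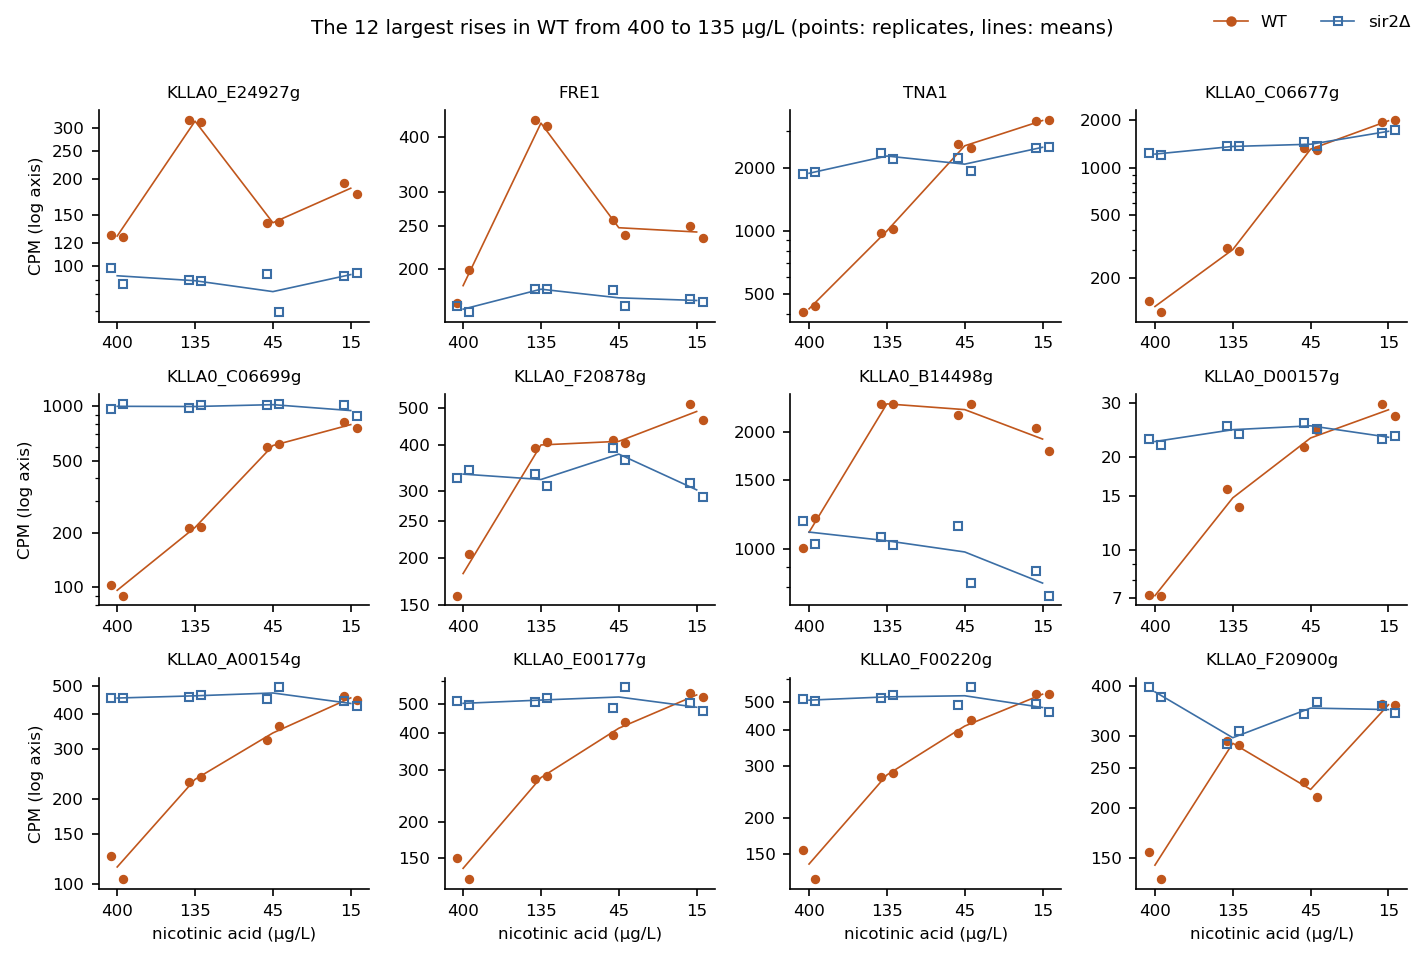
CPM (log axis) of the 12 genes with the largest rises at 135 over 400 µg/L, at the 4 levels of nicotinic acid in WT (filled circles) and sir2Δ (open squares); points are replicates, lines join means, and the levels are evenly spaced. KLLA0_E24927g and FRE1 peak at 135 µg/L in WT, while TNA1 and KLLA0_C06677g climb at every step and lie above sir2Δ at 15 µg/L.

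Other lists had 1 to 4 called genes each, few to set against the 2.22% called higher and 0.861% called lower over all genes tested. Of 28 genes of gluconeogenesis, the glyoxylate cycle and fatty acid oxidation, 3 rose, with a median of 0.15: YAT1, a carnitine acetyltransferase (0.59 ± 0.11), MDH2, the cytosolic malate dehydrogenase (0.57 ± 0.09), and SPS19, a reductase of fatty acid oxidation that is also in the sporulation list (0.40 ± 0.08). MDH2 was called in 5 of the 6 leave-out fits, and the other 2 in 3 each. Of 31 genes of nitrogen catabolism and permeases, UGA1, CAR2 and AGP3 rose by 0.43, 0.32 and 0.39, and the ammonium permease gene MEP3 fell by 0.37, with a median of 0.06. UGA1 was called in 3 of the 6 leave-out fits, and CAR2, AGP3 and MEP3 in 2 each. AGP3 was not called without library 1 (0.30). IME1, the inducer of meiosis, was at 13.7 and 15.0 CPM at 400 µg/L and 23.2 and 20.6 CPM at 135 µg/L, a rise of 0.61 ± 0.11 (adjusted p = 0.00629, edgeR), and was the 1 gene called of 24 in the early meiosis list. It was at 8.94 CPM in library 1 and 17.9 CPM in library 1R, and without library 1 it was not called (0.42, adjusted p = 0.0570, edgeR). SPL2, a phosphate-responsive regulator, rose by 0.65 ± 0.11 (4 of the 6 leave-out fits) and was the 1 called of 17. In the mating pathway FUS1 and STE4 rose by 0.37 and 0.34, 2 of 31, with a median of 0.06. Each was called in 2 of the 6 leave-out fits. The galactokinase gene GAL1 fell by 0.38 ± 0.09, 1 of 5 lactose and galactose genes, and was called in 2 of the 6 leave-out fits. No gene was called in the lists of NAD+ de novo synthesis (1 gene), a-specific genes (7), α-specific genes (4), sugar transport (3), the TCA cycle and respiration (41), thiamine and pyridoxine synthesis (13) or drug and metal efflux (10).

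Rises were frequent near the chromosome ends. Of the 60 genes at ranks 1 to 5 from the 12 ends, 17 rose and 1 fell (28.3% rose, against 2.22% of all genes tested), with a median of 0.24. At ranks 6 to 15, 9 of 118 rose and 1 fell (7.63%, median 0.12), at ranks 16 to 30, 5 of 179 rose and 2 fell (2.79%, median 0.02), and elsewhere 85 of 4854 rose (1.75%, median -0.01). In sir2Δ cells none of the 60 outermost genes rose in the same comparison and 1 fell, against 1.17% and 0.727% of all genes tested. At ranks 6 to 15, 2 rose in sir2Δ and none fell, and at ranks 16 to 30, 2 rose and 1 fell. The count of 17 depended on the replicates at 135 µg/L, with 8 rises among the 60 without library 3 and 5 without library 4, against 13 to 20 in the other leave-out fits. It was 9 with WT columns only or with libraries 1 and 1R apart, 4 with the compared columns only and 23 by DESeq2. The median stayed between 0.17 and 0.34 over these settings.

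The outermost genes themselves did not lead. None of the 12 genes at rank 1 was called at 135 µg/L and their median was 0.04, although the same genes had medians of 2.50 at 45 µg/L and 3.97 at 15 µg/L against 400 µg/L, comparisons that share the 400 µg/L libraries. At rank 2 the median was 0.40 and 5 of 12 rose, at rank 3 it was 0.35 and 4 rose, and at rank 4 it was 0.11 with 5 rises and 1 fall. KLLA0_A00110g at rank 1 was at 11.2 and 7.20 CPM at 400 µg/L and at 9.58 and 10.5 CPM at 135 µg/L, with overlapping groups. By contrast KLLA0_A00154g, at rank 4 of the same end, was at 126 and 104 CPM at 400 µg/L and at 229 and 239 CPM at 135 µg/L, a rise of 1.03 ± 0.09 (adjusted p = 5.60e-06, edgeR). KLLA0_E00177g and KLLA0_F00220g, also at rank 4, have the same coding length and nearly the same values, with rises of 1.02 ± 0.10 and 1.01 ± 0.10, and reads may be shared among these genes. KLLA0_D00157g at rank 2 was at 7.13 and 7.11 CPM at 400 µg/L and at 15.8 and 13.8 CPM at 135 µg/L, a rise of 1.05 ± 0.12.

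Called genes also lay side by side. Of the 161, 29 were in 11 runs of 2 or more neighbours called in the same direction, and all 29 were rises. Runs at ranks 3 to 5 of the left ends of chromosomes A, E and F hold the rank 4 genes that may share reads. Their rank 3 genes rose by 0.81, 0.86 and 0.76 and may share reads as well, so these runs may not be independent. The same genes are counted among the rises at ranks 1 to 5. Whether calls lie side by side more often than others was not tested. The longest run held the 5 genes KLLA0_E24861g, KLLA0_E24883g, KLLA0_E24905g, KLLA0_E24927g and KLLA0_E24949g near the right end of chromosome E, with rises of 0.98, 0.83, 0.56, 1.32 and 0.40. KLLA0_E24861g was at 51.6 and 48.1 CPM at 400 µg/L and at 99.2 and 97.1 CPM at 135 µg/L, above every other WT replicate, as KLLA0_E24927g was. The pair KLLA0_F20878g and KLLA0_F20900g lies in the interior of chromosome F. KLLA0_F20878g was at 158 and 205 CPM at 400 µg/L and at 392 and 406 CPM at 135 µg/L (1.14 ± 0.10), and KLLA0_F20900g was at 156 and 133 CPM and at 292 and 285 CPM (1.00 ± 0.08). Neither pair of groups overlapped.

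**Figure D3:**
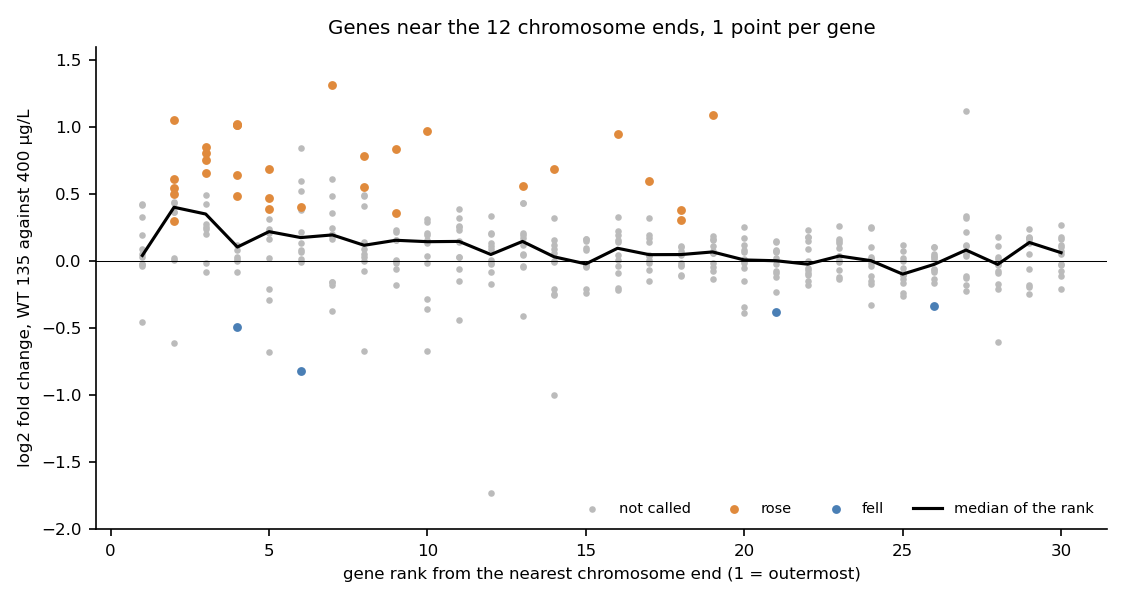
Log2 fold change at 135 over 400 µg/L (y) of each tested gene at ranks 1 to 30 from the 12 chromosome ends (x, 1 = outermost). Orange points rose, blue points fell, and the line is the median of each rank; it is near 0 at rank 1 and highest at ranks 2 and 3. The sparsely read gene KLLA0_B14949g at -4.66, not called, lies below the axis.

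INO1, the enzyme that makes inositol phosphate from glucose phosphate, was the 1 fall called in all 6 leave-out fits. It was at 76.5 and 70.4 CPM at 400 µg/L and at 40.3 and 37.1 CPM at 135 µg/L, a fall of 0.92 ± 0.11 on the log2 scale (adjusted p = 6.16e-05, edgeR) without overlap. It stayed near that level at 45 µg/L (42.7 and 47.0 CPM) and 15 µg/L (46.2 and 53.3 CPM). In sir2Δ cells INO1 was at 133 and 129.9 CPM at 400 µg/L and 111 and 119 CPM at 135 µg/L. ITR1, the inositol transporter gene, was named after its values were seen and fell by 0.32 ± 0.08, called in 1 of the 6 leave-out fits.

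Genes of sulfate assimilation and methionine synthesis made up a large part of the other falls. This list of 31 genes was chosen after values had been seen, so its counts are a description and not independent evidence of its direction. In it 12 genes fell and none rose (38.7% fell, against 0.861% of all genes tested), with a median of -0.27 against -0.01 over all genes. The genes that fell code for the sulfate permease (SUL2), for the activation and reduction of sulfate (MET3, MET16 and MET1, the last for the siroheme cofactor), for the joining of sulfide to a homoserine ester (MET2 and MET17), for the exchange between cysteine and homocysteine (STR3 and CYS3), for the regulators MET28 and MET31, for adenosine kinase (ADO1) and for methionine sulfoxide reductase (MXR1). MET1 was at 86.9 and 94.2 CPM at 400 µg/L and at 64.4 and 58.8 CPM at 135 µg/L, a fall of 0.55 ± 0.10 (adjusted p = 0.00629, edgeR). STR3 was at 86.1 and 83.9 CPM at 400 µg/L and at 61.6 and 55.7 CPM at 135 µg/L, a fall of 0.54 ± 0.10. MET2 was at 192 and 196 CPM and then at 137 and 139.7 CPM, a fall of 0.49 ± 0.09. None of these 3 genes' groups overlapped, which is a description because the same values called the genes. They were called in 5, 5 and 3 of the 6 leave-out fits. Falls in the list numbered 13 without library 1 (median -0.30) and ranged from 0 to 14 over all settings, while the median stayed between -0.31 and -0.23. MXR1 (-0.83) and MET31 (-0.58) were not called without library 1, at -0.57 and -0.43.

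The sulfur genes did not keep falling. From 45 to 15 µg/L, in WT libraries that the 135 µg/L comparison does not use, 10 of the 31 rose and 1 fell, against 9.00% and 3.68% of all genes tested. The 10 were MET16, MET28, STR3, MET1 and SUL2, which had fallen at 135 µg/L, and HOM2, HOM3, STR2, MUP3 and MET10, which were not called there. STR3 reached 120.2 and 137 CPM at 15 µg/L, above its replicates at 400 µg/L. In sir2Δ cells none of the 31 was called at 135 against 400 µg/L, against 1.90% of all genes tested, and the median was 0.05. The difference between the strains, tested below, was called for 6 of the 31, all more negative in WT. Over all genes tested 1.05% were called so. The median difference of the 31 was -0.39 and stayed between -0.47 and -0.35 over the settings, while the count depended on them. Of the wider list of 77 amino acid synthesis genes, 7 fell and none rose, and all 7 are sulfur genes: MET1, STR3, MET16, MET2, MET3, MET17 and CYS3. From 45 to 15 µg/L, 41 of these 77 rose and none fell, so the later rise was not particular to the sulfur genes.

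**Figure D4:**
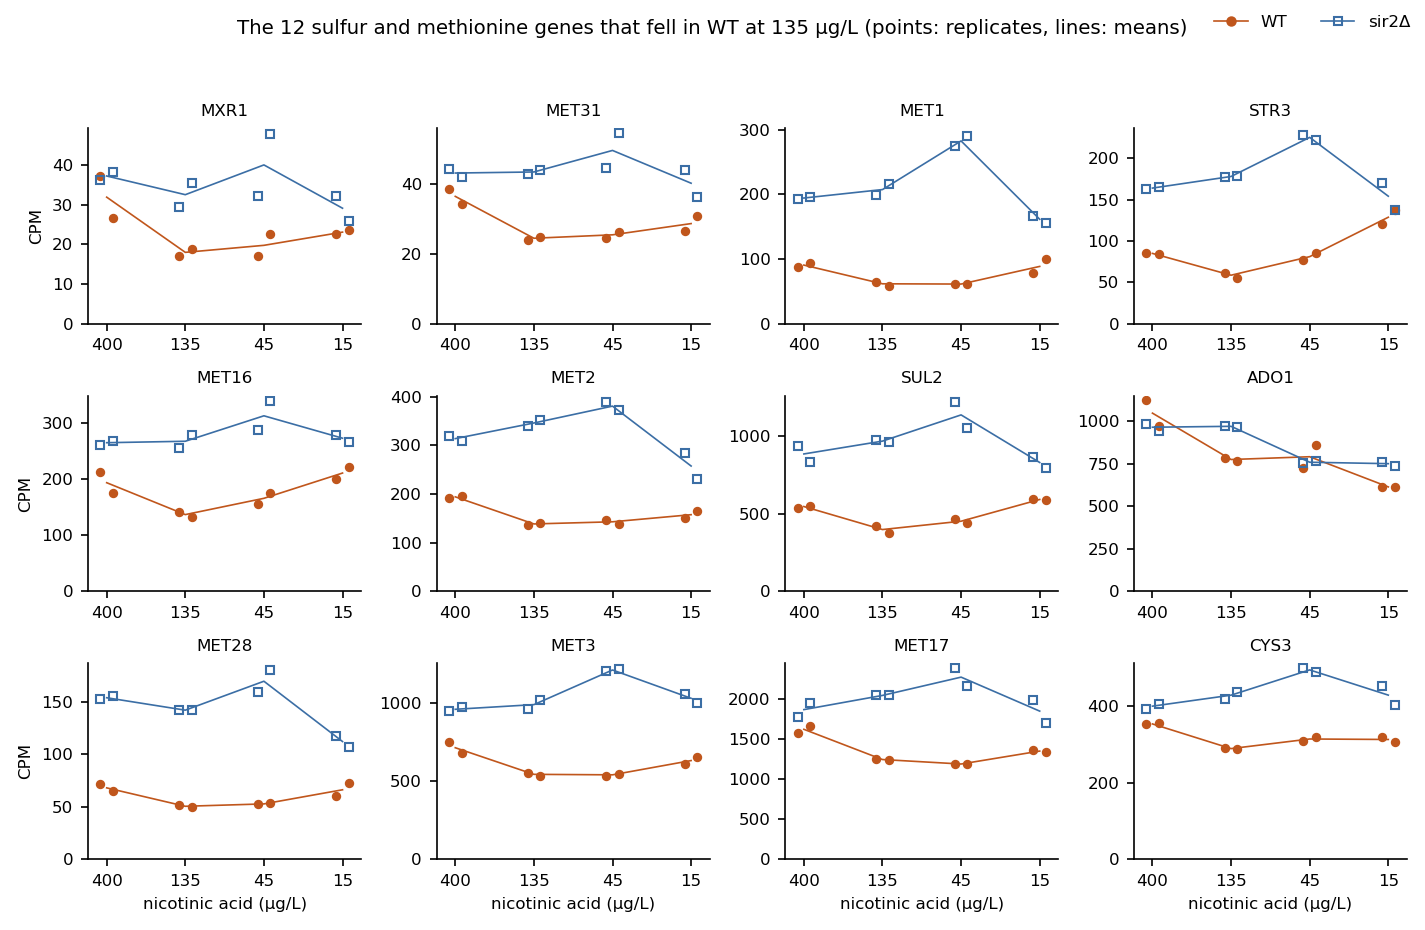
CPM (linear axes from 0) of the 12 sulfur and methionine genes that fell at 135 against 400 µg/L, at the 4 levels of nicotinic acid in WT (filled circles) and sir2Δ (open squares); points are replicates, lines join means, and the levels are evenly spaced. In WT the 2 replicates at 135 µg/L lie below both at 400 µg/L in every panel, a description because the same values called the genes. STR3 climbs again to 120.2 and 137 CPM at 15 µg/L.

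Several of the other large falls involved few reads or library 1. KLLA0_F24596g had 225 and 69 reads at 400 µg/L, where replicate 1 is the sum of 2 libraries, and 42 and 41 reads at 135 µg/L, a fall of 1.23 ± 0.24 from 3.10 and 1.99 CPM to 1.13 and 1.12 CPM. The gene was at 64.4 and 69.7 CPM in sir2Δ cells at 400 µg/L. KLLA0_B08261g (-0.97) and KLLA0_E09153g (-0.68) were likewise below 10 CPM in WT and above 30 CPM in sir2Δ at both levels. KLLA0_B08261g was not called without library 1 (-0.67). Reads of the α mating-type genes, which a MATa strain lacking HML and HMR should not hold, were highest in libraries 1 and 1R, and their part in these 3 falls was not tested. RPC25, a subunit of RNA polymerase III, and PXR1, a ribosomal RNA processing factor, fell by 0.86 and 0.80, but without library 1 their values were -0.45 and -0.21 and neither was called. Library 1 held RPC25 at 27.8 CPM and PXR1 at 97.4 CPM, against 10.7 and 27.1 CPM in library 1R. KLLA0_B14839g (-0.82, 5 of 6 leave-out fits) and KLLA0_F26686g (-0.76, 4 of 6) have no symbol, and the zinc finger gene USV1 fell by 0.60 (1 of 6).

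Of 147 ribosome biogenesis genes 5 fell and none rose (3.40% fell, against 0.861% of all genes tested), with a median of -0.15. The falls numbered 2 without library 1, 11 without library 2 and 0 without library 1R, 3 or 4, without libraries 1 and 1R, with WT columns only, with the compared columns only or with libraries 1 and 1R apart, and 10 by DESeq2. The median stayed between -0.21 and -0.13. Those named by the rule were RRP36 (-0.55), NOP4 (-0.50), NOP58 (-0.43) and NOP7 (-0.36), each called in 1 of the 6 leave-out fits. Without library 1 their values were -0.34, -0.28, -0.22 and -0.29, and none of the 4 was called. None of 57 cytosolic ribosomal protein genes was called, and their median was -0.16, but 0.03 without library 1. Over all genes the median at 135 against 400 µg/L was -0.08 for the shortest of the 5 length bins and 0.06 for the longest, and 0.08 and -0.03 without library 1. Among 61 histone and replication genes the histone gene HTB2 fell by 0.37 and was called in 1 of the 6 leave-out fits, but not without library 1 (-0.24).

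The same drop was measured in sir2Δ cells, grown in parallel, in libraries that the WT comparison does not use. There 61 genes rose and 38 fell, 1.90% of those tested, but at most 17 were called when any 1 of the 4 sir2Δ libraries was left out: 1 without library 1, 3 without library 2, 17 without library 3 and 1 without library 4. Upper-quartile scaling gave 97 rises and 27 falls there, so that 78.2% of its calls were higher against 61.6%. Of the 116 genes that rose in WT, 2 rose and 8 fell in sir2Δ (1.72% and 6.90%, against 1.17% and 0.727% of all genes), and their median there was 0.00. Of the 28 rises called in all leave-out fits none rose in sir2Δ and 3 fell, namely KLLA0_F20900g, KLLA0_F19382g and ARA1. The 2 that rose in both strains were ALD5 (0.51 in WT, 0.61 in sir2Δ) and KLLA0_E14609g (0.52 and 0.58). Of the 45 genes that fell in WT, KLLA0_B09064g rose in sir2Δ (0.50) and GAL1 fell (-0.38 in each strain). KLLA0_E14609g was named after its values were seen. For 24 of the 28, the sir2Δ mean at 400 µg/L was above the WT mean at 400 µg/L, as it was for 2571 of the 5224 genes tested. The 28 were chosen with the same WT values, which favours that order, so the count is a description.

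**Figure D5:**
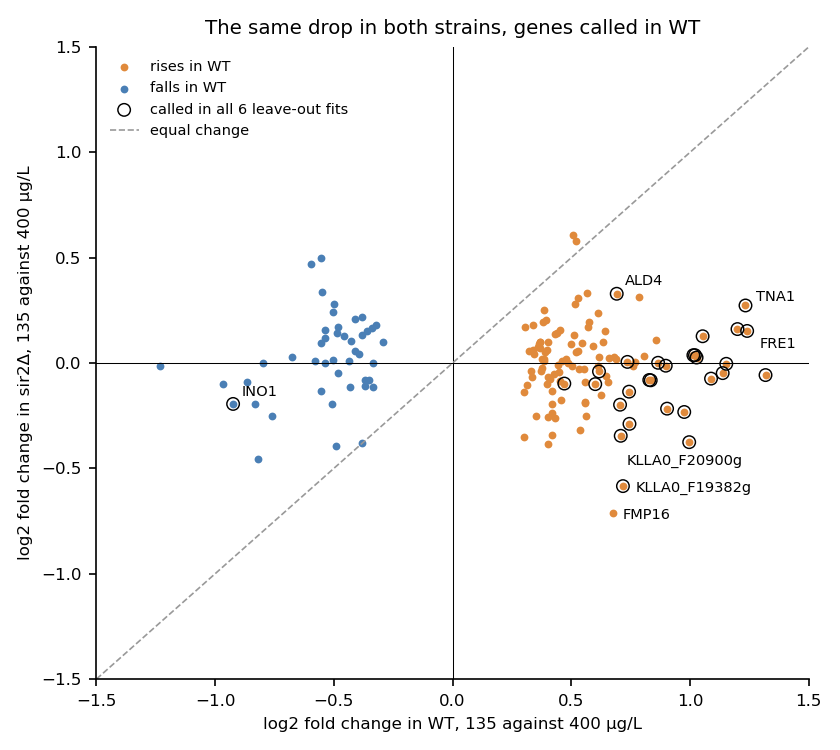
Log2 fold change at 135 over 400 µg/L in WT (x) and in sir2Δ (y) for the genes called in WT; orange rose in WT, blue fell, rings mark the genes called in all 6 leave-out fits, and the dashed line marks equal change. The rises lie near 0 on the sir2Δ axis, with FMP16 at -0.71 and KLLA0_F19382g at -0.58; 2 genes with almost no sir2Δ reads, KLLA0_C03157g and KLLA0_B14575g, lie outside the axes.

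The difference between the strains was tested directly, as the change in WT minus the change in sir2Δ. It was called for 142 genes, 2.72% of those tested, with WT the more positive for 87 (1.67%) and the more negative for 55 (1.05%). Upper-quartile scaling gave 52 and 108, so that 32.5% of its calls were more positive in WT against 61.3%. The count was 317 without WT library 1 and 39 without WT library 1R. It was 52 and 45 without WT libraries 3 and 4, and 53, 54, 69 and 49 without sir2Δ libraries 1 to 4. In all 10 leave-out fits 30 genes were called, 25 of them more positive in WT. These include TNA1, whose difference was 0.96 ± 0.13 (adjusted p = 0.000558, edgeR), FRE1 (1.09 ± 0.12), KLLA0_E24927g (1.38 ± 0.15) and KLLA0_C06677g (1.04 ± 0.12). CTR1 (0.91 ± 0.15), HSP12 (0.91 ± 0.15) and CTT1 (0.66 ± 0.12) also differed, with adjusted p of 0.00298, 0.00398 and 0.00546 (edgeR). They are outside these 30, each being called in 9 of the 10 leave-out fits. ALD4, called in WT in every leave-out fit, did not differ past the threshold (0.36 ± 0.13, adjusted p = 0.200, edgeR), and its sir2Δ change was 0.33. INO1 differed by -0.73 ± 0.15 and was called in 5 of the 10 leave-out fits.

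KLLA0_F19382g moved in opposite directions in the strains. It was at 34.5 and 29.9 CPM at 400 µg/L and 51.1 and 55.1 CPM at 135 µg/L in WT, and at 167 and 169 CPM and then 110.3 and 114 CPM in sir2Δ. The groups were apart in each strain, and both changes were called (0.72 ± 0.09 and -0.58). KLLA0_F20900g did likewise, with a WT rise of 1.00 and a sir2Δ fall of 0.38. Among ribosome biogenesis genes the difference was called for 21 of 147, all more negative in WT (against 1.05% of all genes tested), with a median of -0.40. Over the settings tried that count ran from 2 to 43 and the median from -0.47 to -0.37. In sir2Δ 17 of them rose (against 1.17% of all genes tested), with a median of 0.25, but only 0 to 2 did when a sir2Δ library was left out, with medians of 0.21 to 0.29. Among the 17 was UTP8, at 17.1 and 17.6 CPM before and 27.6 and 30.6 CPM after the drop.

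Rises at 135 µg/L were set beside a step in WT libraries that the comparison does not use, from 45 to 15 µg/L. Of the 116 rises, 57 also rose in that step and none fell (49.1%, against 9.00% of all genes tested called higher and 3.68% called lower), with a median of 0.29. Of the 28 rises called in all leave-out fits, 16 rose again, with a median of 0.37. TNA1 rose by 0.40 in the step, KLLA0_C06677g by 0.60, KLLA0_A00154g by 0.41 and DTR1 by 0.66. FRE1 (-0.03), CTR1 (0.00), HSP12 (-0.22) and ALD4 (-0.13) were not called in it. Of the 45 falls, 11 rose in that step (24.4%) and 1 fell. Among the falls that rose again were KLLA0_F24596g, KLLA0_B08261g and KLLA0_E09153g, by 2.08, 2.65 and 2.23 on the log2 scale, and MET1 and STR3, by 0.53 and 0.67.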

How the data were processed

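Polyadenylated RNA of K. lactis cultures was sequenced in 17 libraries of 8 groups. The authors deposited raw counts of reads in 5335 genes. Per the submitters' processing notes, Bowtie2, cutadapt, DESeq2, FastQC, featureCounts, MultiQC and SAMtools were used. Not given in the sources used here are the settings, genome build, annotation, strand and treatment of multiply matching reads, so reads of near-identical, overlapping or antisense genes may be shared. The deposited normalized table was not used. RefSeq assembly ASM251v1 gave names, coding lengths and gene order. It matched all 5335 identifiers and gave 4043 of them a symbol. No coordinates are given, because the build of the counts is not known.

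The deposited counts were tested with edgeR 4.0.16 (R 4.3.3, limma 3.58.1) with robust quasi-likelihood tests. The WT libraries 1 and 1R were summed, which left 16 columns. Genes were kept at a minimum count of 10 (filterByExpr), leaving 5224 and removing 111, and libraries were scaled by TMM. The model had 1 mean for each of the 8 groups with 8 residual degrees of freedom, and the common biological coefficient of variation was 0.0857. P-values were adjusted by Benjamini-Hochberg across all 5224 genes, with calls made under 0.05. Fold changes are log2 with a prior count of 0.125, given ± SE. Each group had 2 replicates, so each p-value sets a difference against a spread between replicates that was estimated over all 8 groups, not the compared cultures alone. Whether replicate groups overlap is given as a description, because called genes were chosen by the same values. A count of 0 allows up to 3 reads, and such limits cover counting error only. The test was checked on simulated data with the same spread for every gene and column. That check held no library that stood apart as library 1 does, and so cannot speak for its effect.

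Gene ends are ranked by order from each of 12 chromosome ends. The genes named are the 12 largest called rises and 12 largest called falls, up to 4 called members of each list by size, a set of NAD+ and silencing genes, and the largest called genes of the sir2Δ and strain-difference comparisons. Members and lists were chosen with earlier results of these data known. The sulfur list was added after values of this comparison had been seen. Alternatives were DESeq2 1.42.0, other scaling factors, no filter, fewer columns in the fit, libraries 1 and 1R kept apart, each library left out, and a replicate block for the strain difference.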

Additional observations from a re-analysis of the deposited data

Results flagged for a closer look

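The change from 400 to 135 µg/L differed between WT and sir2Δ for 142 genes by a test of the difference itself (edgeR's quasi-likelihood test with Benjamini-Hochberg adjustment). The strains also differ in mating type, which cannot be told apart from SIR2 here.

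Of the genes more positive in WT, COX2, a mitochondrially encoded oxidase subunit, had a difference of 1.66 on the log2 scale. COX2 fell in sir2Δ from 109 and 104 reads to 41 and 24 reads, and was at 141, 76, 70 and 57 reads in the WT columns, where the first is the sum of 2 libraries. The values of FMP16 (1.39), KLLA0_E24927g (1.38), KLLA0_F20900g (1.37) and KLLA0_F19382g (1.30) followed. FMP16, KLLA0_F20900g and KLLA0_F19382g rose in WT and fell in sir2Δ, and KLLA0_E24927g rose in WT, with a sir2Δ change of -0.057 that was not called. The differences of KLLA0_E24927g, KLLA0_F20900g and KLLA0_F19382g were called in all 10 leave-out fits, and those of COX2 and FMP16 were not. With libraries 1 and 1R apart neither COX2 nor FMP16 was called. The mean of COX2 was 3.51 CPM at 400 µg/L and 0.94 CPM at 135 µg/L in sir2Δ, and 2.07 and 1.72 CPM in WT. ATP6 and lrRNA, also mitochondrially encoded, had lower sir2Δ means at 135 µg/L as well, from 3.71 to 1.16 CPM and from 507 to 178 CPM. Reads of ribosomal RNA genes were 6.10% and 7.39% of the sir2Δ libraries at 400 µg/L and 4.04% and 1.36% at 135 µg/L. Whether the COX2 difference is tied to such reads was not tested.

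Of the genes more negative in WT, KLLA0_F24596g differed by -1.22, USV1 by -1.07 and KLLA0_B09064g by -1.05. KLLA0_B09064g was at 283 and 259 CPM before and 183 and 186 CPM after the drop in WT, and at 661 and 648 CPM before and 837 and 1013 CPM after it in sir2Δ. TRM8 (-0.90), RRP36 (-0.89), UTP8 (-0.88), EFM2 (-0.85) and DBP9 (-0.85) serve in ribosome biogenesis or the modification of RNA or translation factors. Their WT values were not called except for RRP36. Of the genes named here as more negative in WT, only KLLA0_B09064g kept its difference called in all 10 leave-out fits.

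KLLA0_C03157g and KLLA0_B14575g also differed between the strains. In WT they had 357 and 373 reads in the summed replicate at 400 µg/L, 171 and 160 in the other, and 314 and 336, then 322 and 363, at 135 µg/L. In sir2Δ KLLA0_C03157g had 12 and 13 reads at 400 µg/L and 0 in both replicates at 135 µg/L, and KLLA0_B14575g had 17 and 9 reads and then 0 and 1, so no fold change is given. Their coding lengths are equal and reads may be shared between them.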

How the results depend on the processing

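For WT at 135 against 400 µg/L, 161 genes were called, against 267 by DESeq2, 73 with WT columns only, 32 with the 4 compared columns only and 68 with libraries 1 and 1R as separate columns. Leaving out libraries gave 35 to 293, with 75 without library 1R. For sir2Δ the count was 99, against 254 by DESeq2 and 1 to 17 with a library left out. For the difference between strains it was 142, against 266 by DESeq2, 48 with libraries 1 and 1R apart, and 39 to 317 with a library left out. For WT at 15 against 45 µg/L it was 662, and 366 to 677 with a library left out. Upper-quartile or relative log expression factors and no filter on low counts kept each of these counts within 1.5 times. Of the genes at ranks 1 to 15 from the ends, 26 rose and 2 fell. With WT columns only or with libraries 1 and 1R apart, 14 rose and 1 fell, with the 4 compared columns only 8 rose and 0 fell, and by DESeq2 37 rose and 5 fell. Leaving out libraries gave 10 to 27 rises and 0 to 5 falls, among them 4 falls without library 1 and 1 without library 1R. With 30 genes per end 31 rose and 4 fell. All of these for the ends except the number of genes per end were chosen after seeing the data. The value of NRK1, not called, changed sign from 0.095 to -0.018 without library 1 and ranged from -0.13 without libraries 1 and 1R to 0.34 without library 2. Of the values of genes named in WT under an alternative, 555 kept their direction and their side of the threshold, 220 kept direction but were not called, 3 became called, and these 2 of NRK1 reversed.

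The strain difference could be fitted with a replicate block, which gave 229 calls and included all 142. Replicate differences of the strains correlated at -0.133, -0.0954, 0.324 and 0.194 at 400, 135, 45 and 15 µg/L, so the numbers were not taken to pair the cultures. No paired analysis was possible for WT at 135 against 400 µg/L because its groups share no replicate number. A lone replicate was assumed to vary like the other groups. The causes of these changes were not tested.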
